A study of Saccharomyces cerevisiae with 18 samples.

Results

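The genes that lead from pyruvate to ethanol, acetate and acetyl-CoA in budding yeast are described here across a potassium starvation time course. They were chosen by name and are 9 of the 6212 genes in the deposited table: PDC1 (YLR044C), PDC5 (YLR134W), PDC6 (YGR087C), ADH1 (YOL086C), ADH2 (YMR303C), ALD4 (YOR374W), ALD5 (YER073W), ALD6 (YPL061W) and ACS2 (YLR153C). Values were present for 8 of the 9. ADH2, the glucose-repressed alcohol dehydrogenase that oxidises ethanol, had no value on any of the 18 arrays and nothing can be said of it. It was 1 of 439 genes without a value.

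All RNA came from wild-type BY4741, a haploid laboratory strain whose auxotrophies for histidine, leucine, methionine and uracil were carried by both cultures on every array. One culture was grown at 28 °C in Translucent K-free medium (residual potassium about 15 µM), washed and kept in that medium. The other was grown, washed and kept in the same medium with 50 mM KCl. Per the growth protocols, both had been in their own medium until an absorbance of 0.6 before the wash, while the study's design text speaks of a sudden shortage, so how long cells had been without potassium is not settled by the labels. Samples were taken 10, 20, 40, 60 and 120 min after the wash. Spotted 2-colour arrays compared the cultures of a time point. There were 2 arrays at 10 min, from 1 experiment hybridised in both dye orientations. Every later time had 4, from 2 independent experiments (A and B) treated likewise. Which arrays form an experiment is not stated in the labels, and arrays 1 and 2 were taken as A. Each value is a log2 ratio of K-free over KCl, a direction taken from the array titles and likely but not stated, as is the base of the log. The arrays gave values for 3913 to 5372 genes, and their number limits the precision. A ratio is relative to the rest of the array, so a fall or rise of all messages together is not seen, and fewer transcripts per cell cannot be told apart from a smaller share of cells expressing the gene.

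In fermenting yeast, pyruvate decarboxylase splits pyruvate into acetaldehyde and carbon dioxide. Alcohol dehydrogenase then reduces most of the acetaldehyde to ethanol, regenerating NAD+, while aldehyde dehydrogenases oxidise a part to acetate, which acetyl-CoA synthetase activates for lipid synthesis and histone acetylation. Several of these steps have paralogous isozymes with different regulation. Among the decarboxylases Pdc1 is the main form, Pdc5 is induced when PDC1 is lost or thiamine is short, and Pdc6 is a minor form, poor in methionine and cysteine, known to be induced when sulfur is limiting.

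Of the 3 pyruvate decarboxylase genes, PDC6 alone was called. It was 8.0-fold higher in K-free cells at 60 min and 15.6-fold higher at 120 min, with no call at 10, 20 or 40 min. The experiments stood at 2.45-fold and 25.9-fold at 60 min and at 9.38-fold and 25.9-fold at 120 min. The size also rested on the scale of the arrays, whose standard deviations ran from 0.384 to 1.45. These deviations were smaller at 10 and 20 min than later. Scaled to 1 spread, the log2 ratio of PDC6 at 60 min was 1.88 against 2.99, and that of PDC6 at 120 min 2.68 against 3.96. Scaling cannot tell the spread of an array apart from a response that grew with time. ALD4, the mitochondrial aldehyde dehydrogenase, was 3.27-fold higher at 60 min and 2.29-fold at 120 min. At 120 min ADH1, the main fermentative alcohol dehydrogenase, and ACS2, the acetyl-CoA synthetase used during growth on glucose, were lower, with mean log2 ratios of -0.89 and -1.0. PDC5, ALD5 and ALD6 passed the test at no time point. PDC1 did not pass either, but its ratio lay within 0.003 of that of another gene, TDH3, on all 18 arrays, as described with its values.

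**Figure D1:**
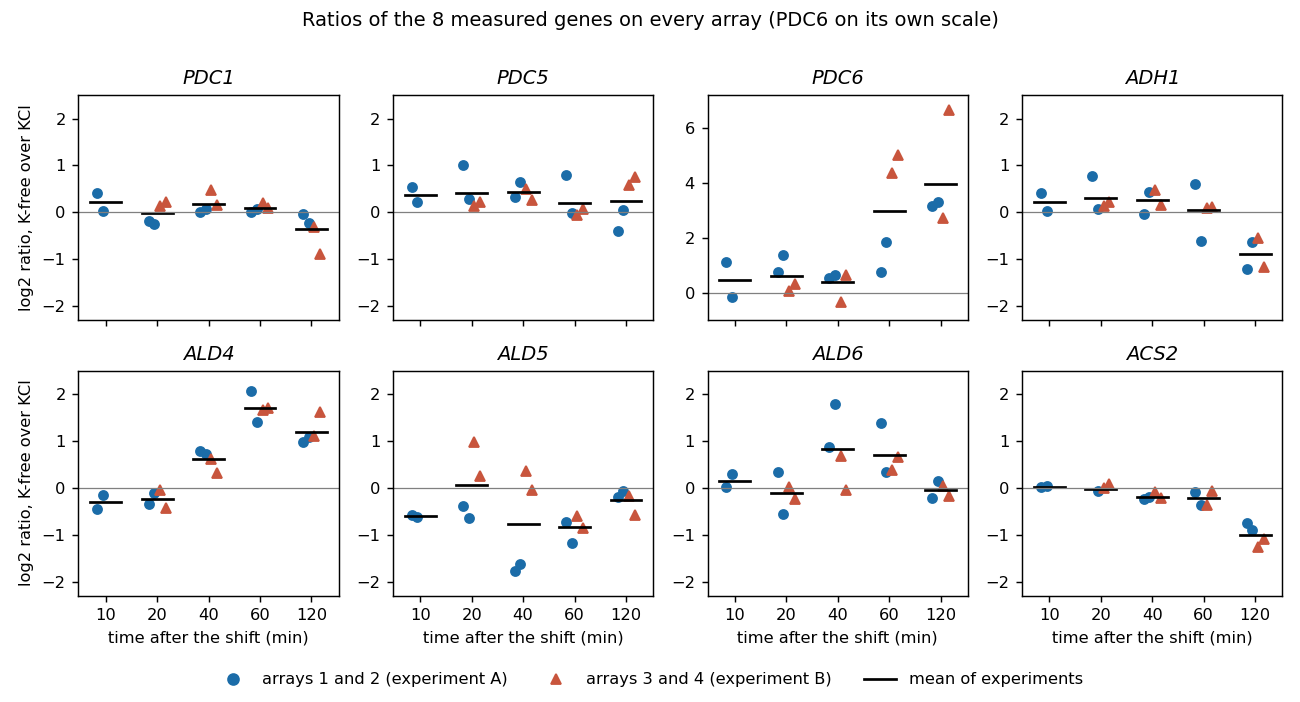
Log2 ratio of K-free over KCl (vertical axis) against time after the shift in min (horizontal axis, equally spaced) for the 8 measured genes, with 1 point per array, blue circles for arrays 1 and 2, red triangles for arrays 3 and 4, and a black bar for the mean of the experiments. PDC6 has its own vertical scale, and its 4 arrays lie between 2.72 and 6.67 at 120 min, while ALD4 is above 0 on every array from 40 min and ACS2 is below 0 on every array from 40 min.

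Those calls come from a limma fit over all genes, in which each dye-swap pair was averaged to 1 experiment value and an adjusted p under 0.05 (Benjamini-Hochberg over all genes tested) was the threshold. The error given with a mean is its standard error (SE) from that fit, over experiments. No member passed at 10 min, when 0% of 4821 genes did, with 135 genes at an unadjusted p under 0.05 in limma and 0 members among them. No member passed at 20 min either, when 0.482% of genes did (0.459% higher, 0.0229% lower) and 0 members had an unadjusted p under 0.05 in limma, nor at 40 min. There 8.93% of genes passed (5.23% higher, 3.7% lower), and 2 members, ALD4 and ALD6, had an unadjusted p under 0.05 in limma. Under some other settings 1 to 3 members passed at 40 min. At 60 min 2 of 8 tested members rose and 0 fell, where 46.8% of all genes tested passed (21.7% higher, 25.1% lower). At 120 min 2 rose and 2 fell, where 42.3% passed (20.4% higher, 22% lower). From 20 to 120 min 1 rose and 2 fell, where 15.8% passed (5.46% higher, 10.4% lower). A share of 4 in 8 at 120 min is near the 42.3% of all genes, so that count says nothing particular about these genes. The 3 of 8 called from 20 to 120 min lay above the 15.8% of all genes, a difference that was not tested. The account below is by gene. The median log2 ratio of the 8 members was 0.15 at 60 min and -0.15 at 120 min, beside -0.09 and 0.00 over all genes tested.

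PDC6 had the highest mean of the 8 genes at 60 and at 120 min. At 10 min its log2 ratios were 1.131 and -0.167 on the 2 arrays. They were 0.751, 1.365, 0.076 and 0.322 on arrays 1 to 4 of 20 min and 0.546, 0.660, -0.330 and 0.650 at 40 min. Up to 40 min the arrays thus scattered about a small positive mean, with 1 below 0 at 10 min and 1 at 40 min. The 95% interval of the mean ran from -1.04 to 2.30 at 20 min and from -1.29 to 2.05 at 40 min. The lack of a call therefore does not show that PDC6 was unchanged at these times. Both intervals use 1 spread shared by all time points, including 60 min, where the experiments lay far apart. At 60 min the values were 0.745, 1.843, 4.375 and 5.013, for a mean of 2.99 ± 0.71 (SE, 2 experiments, adjusted p = 0.0114). Both arrays of experiment B lay above both arrays of experiment A, and the experiments stood at 4.69 and 1.29. Without experiment B PDC6 did not pass (1.29, adjusted p = 0.112), and without experiment A it stood at 4.69. The value of PDC6 at 60 min fitted on that time alone did not pass (adjusted p = 0.0721).

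At 120 min PDC6 stood at 3.152, 3.308, 2.717 and 6.672, a mean of 3.96 ± 0.71 (SE, 2 experiments, adjusted p = 0.00504). The 4 values at 120 min lay above every value at 10, 20 and 40 min, and overlapped those of 60 min. Array 4 stood far above the other 3, and without it the mean was 2.97 (adjusted p = 0.0134). Without experiment B, which holds that array, the mean was 3.23 and did not pass (adjusted p = 0.0763). PDC6 ranked 14 of 4410 genes tested at 120 min and 58 of 4127 at 60 min, counted from the highest ratio. The rise from 20 to 120 min, 3.33 ± 1.01, did not pass (adjusted p = 0.0611). The same change in PDC6, 120 minus 20 min, passed with the experiment as a random block (adjusted p = 0.0155), with arrays 1 with 3 and 2 with 4 as the pairs (0.00584), with 4 arrays taken as 4 replicates (0.00539) and among genes with a value on every array (0.0440), and scaled to 1 spread it was 1.64 (0.155). Between 60 and 120 min the difference was 0.97 ± 1.01 (adjusted p = 0.617), and in that comparison limma called 0 genes (0%), with 792 at an unadjusted p under 0.05.

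PDC1 encodes the bulk of pyruvate decarboxylase and is among the most abundant messages of a fermenting cell. Its log2 ratios were 0.407 and 0.039 at 10 min, then -0.194, -0.246, 0.137 and 0.220 at 20 min. They were 0.015, 0.069, 0.476 and 0.164 at 40 min and 0.016, 0.070, 0.200 and 0.103 at 60 min. At 120 min all 4 arrays were below 0, at -0.042, -0.222, -0.308 and -0.878, for a mean of -0.36 ± 0.19 (SE) that did not pass (adjusted p = 0.161). PDC1 at 120 min passed with arrays 1 with 3 and 2 with 4 as the pairs (adjusted p = 0.0493) and with arrays as replicates (0.0337).

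These ratios were not particular to PDC1, a pattern noticed after the values were seen. On all 18 arrays PDC1 lay within 0.003 of TDH3, the main glyceraldehyde-3-phosphate dehydrogenase gene, and on 9 the deposited values were identical to 3 decimals. Across all genes, 18 lay within 0.003 of the TDH3 value on 9 or more arrays, these 2 included. Of the 18, 11 have gene symbols, and they are TDH1, TDH2, TDH3, ENO1, ENO2, FBA1, PGK1, CDC19 and PDC1 of glycolysis and fermentation, TEF2 for translation elongation factor 1 alpha, and CCW12 for a cell wall mannoprotein. The other 7 carry a systematic name alone. The number of genes within 0.003 of TDH3 ran from 11 to 91 per array, between 0.98 and 4.47 times the mean of windows of that width within 0.1 around it, and PDC1 held the most frequent value of the array on 11 of 18 arrays. ADH1 shared the value on 7 arrays (both of 10 min, 3 and 4 of 20 min, 3 and 4 of 40 min, 4 of 60 min) and PDC5 on 2, while PDC6, ALD4, ALD5, ALD6 and ACS2 shared it on 0. Spot intensities were not used here, and why genes share the TDH3 value was not tested. Whether a shared ratio measures the gene itself cannot be told from these values. The PDC1 ratios, and those of ADH1 and PDC5 on the arrays named, are therefore given as deposited, and no change or lack of change of PDC1 is read from them.

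**Figure D2:**
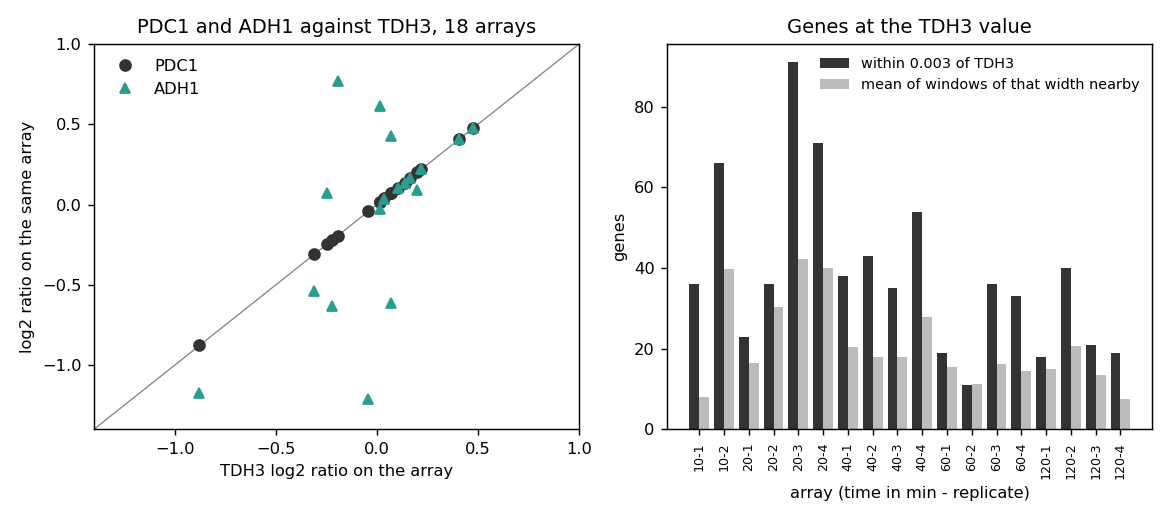
Left, the log2 ratio of PDC1 (black circles) and ADH1 (green triangles) against that of TDH3 on the same array, for 18 arrays, with a grey line of equality; right, the number of genes within 0.003 of the TDH3 ratio on each array (black bars) and the mean number in windows of that width nearby (grey bars). PDC1 lies on the line on all 18 arrays and ADH1 on 7, and the black bars run from 11 to 91 genes.

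PDC5 was above 0 at 10 min (0.538 and 0.210), at 20 min (1.013, 0.295, 0.137 and 0.217) and at 40 min (0.335, 0.640, 0.487 and 0.264). At 60 min it stood at 0.793, -0.014, -0.060 and 0.065, and at 120 min at -0.397, 0.055, 0.587 and 0.762. Arrays 3 and 4 of 20 min are the 2 that share the TDH3 value. The means ran from 0.20 ± 0.24 at 60 min to 0.43 ± 0.24 at 40 min and none passed (lowest adjusted p = 0.287, at 40 min). At 120 min the 95% interval of the mean ran from -0.31 to 0.82, so the lack of a call does not show that PDC5 was unchanged.

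The isozymes were set against each other on the same array, where any shift of the whole array cancels. PDC6 exceeded PDC5 by 2.80 at 60 min and by 3.71 at 120 min, with differences of 3.549, 3.253, 2.130 and 5.910 on the 4 arrays of 120 min. At 60 min the differences were -0.048, 1.857, 4.435 and 4.948, again higher in experiment B, and at 20 and 40 min the means were 0.21 and -0.05. Over the 8 experiments of 20 to 120 min the mean difference was 1.67 ± 2.02 (SD, n = 8), above 0 in 7 of 8 (exact two-sided sign-flip permutation test p = 0.0391, 0.0781 after adjustment over the 4 pairs that could be tested). The smallest p this test allows is 0.00781 before adjustment. PDC6 exceeded PDC1 by 2.02 ± 2.10 (SD, n = 8) over the same experiments, above 0 in 7 of 8 (exact permutation p = 0.0234, adjusted 0.0781). PDC1 held the value shared with TDH3, so whether this is a difference between the isozymes cannot be told. Neither difference, averaged over 20 to 120 min, passed after adjustment, and the differences at single time points were not tested. Each SD spans the time course as well as the experiments. Whether experiments of different time points share a culture is not given, and probe signal shared between these paralogs, which would pull their ratios together, was not checked.

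**Figure D3:**
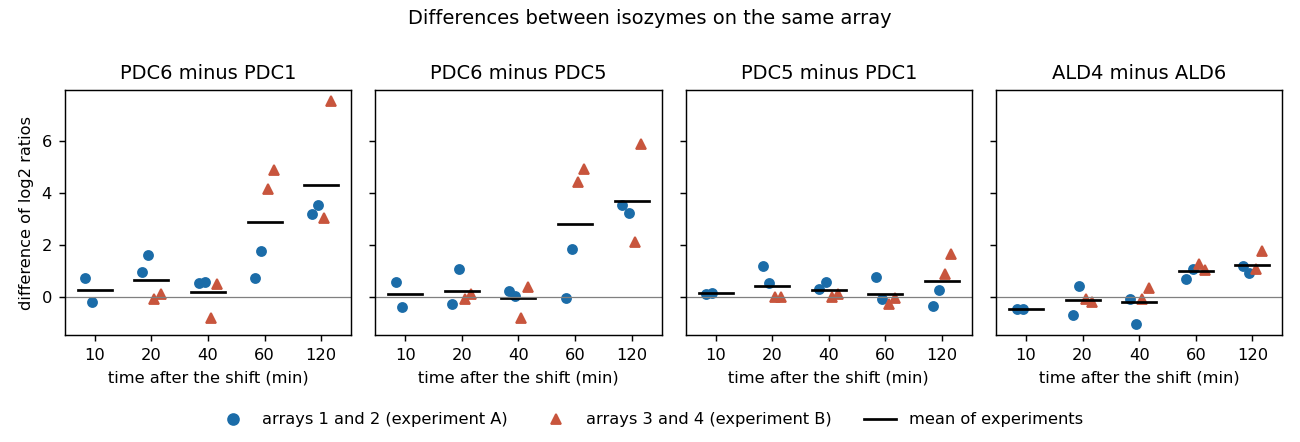
Difference of the log2 ratios of 2 isozymes on the same array (vertical axis) against time after the shift in min, with 1 point per array, symbols as for the members' ratios, and a black bar for the mean of the experiments. PDC6 minus PDC5 lies between -0.817 and 1.07 up to 40 min and between 2.13 and 5.91 at 120 min, and ALD4 minus ALD6 is above 0 on all 4 arrays at 60 and at 120 min.

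PDC5 minus PDC1, to which the same limit applies, averaged 0.35 ± 0.50 (SD, n = 8), above 0 in 5 of 8 experiments (exact permutation p = 0.0938, adjusted 0.102). Of the 5 pairs planned, ADH2 with ADH1 could not be tested.

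ADH1 turns acetaldehyde into ethanol. At 120 min its log2 ratios were -1.212, -0.633, -0.539 and -1.173, a mean of -0.89 ± 0.16 (SE, 2 experiments, adjusted p = 0.00454), or 1.85-fold lower. None of these 4 values coincided with TDH3: ADH1 lay below it by 0.229 to 1.17. All 4 were below every earlier ADH1 value other than the -0.611 on array 2 of 60 min, and the experiments stood close together, at -0.92 and -0.86. At 60 min the arrays spread on both sides of 0, at 0.611, -0.611, 0.092 and 0.105. The first 2, of opposite dye orientation and taken to be a pair, had opposite signs. At 20 min they were 0.769, 0.072, 0.137 and 0.220 and at 40 min -0.029, 0.429, 0.478 and 0.164, and no mean before 120 min passed. From 20 to 120 min ADH1 fell by 1.19 (SE 0.22, adjusted p = 0.0175), a call lost without either experiment of 20 min or experiment B of 120 min. With the shared values left out, an alternative chosen after seeing the data, ADH1 at 120 min passed with an adjusted p of 0.0130 and the fall from 20 min was -1.31 (adjusted p = 0.0430). Fitted on 120 min alone ADH1 did not pass (adjusted p = 0.0702).

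The 3 aldehyde dehydrogenase members are given in turn, and of the differences between them only ALD4 minus ALD6 was tested. ALD4, the potassium-activated mitochondrial form, was below 0 on both arrays of 10 min (-0.446 and -0.154) and on all 4 of 20 min (-0.351, -0.118, -0.052 and -0.438). It was above 0 on all 4 of 40 min, at 0.778, 0.725, 0.612 and 0.316, without passing (0.61 ± 0.17, adjusted p = 0.0649). At 60 min it stood at 2.074, 1.409, 1.654 and 1.698, with a mean of 1.71 ± 0.17 (adjusted p = 0.000614). At 120 min it stood at 0.979, 1.077, 1.110 and 1.617, with a mean of 1.196 ± 0.17 (adjusted p = 0.00202). Scaled to 1 spread, ALD4 at 60 min stood at 1.09 (adjusted p = 0.00441). ALD4 at 40 min passed under 6 of the other settings, the random block among them (adjusted p = 0.0149). The 2 experiments were close at both times, 1.74 and 1.68 at 60 min and 1.03 and 1.36 at 120 min. The ranges of 20, 40 and 60 min did not overlap. From 20 to 120 min ALD4 rose by 1.44 ± 0.24 (adjusted p = 0.0165). Its calls at 60 and 120 min were the only ones of any member to hold under every alternative run. The change from 20 min was not called without either experiment of 20 min or without experiment B of 120 min.

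ALD6, the major cytosolic form that supplies acetate and NADPH, had its highest means at 40 and 60 min, and neither passed. Its log2 ratios at 40 min were 0.874, 1.778, 0.681 and -0.046 (mean 0.82 ± 0.24, adjusted p = 0.0786), and at 60 min 1.392, 0.344, 0.380 and 0.648 (0.69 ± 0.24, adjusted p = 0.0503). At 20 min it stood at 0.330, -0.552, 0.011 and -0.248, and at 120 min at -0.219, 0.149, 0.042 and -0.167, on both sides of 0. The mean at 60 min sits at the threshold. ALD6 at 60 min passed with the experiment as a random block (adjusted p = 0.0364) and with the arrays centred on their medians (0.76, adjusted p = 0.0365). It also passed with the other pairing (0.0092) and with arrays as replicates (0.0132). ALD6 at 40 min passed with the random block (0.0358), the other pairing (0.0109), arrays as replicates (0.0111), quantile normalization (0.0457) and fitted on that time alone (0.0352). With a replicate block ALD6 at 40 min did not pass (0.0672). ALD4 exceeded ALD6 on all 4 arrays of 60 min, by 0.682 to 1.274, and on all 4 of 120 min, by 0.928 to 1.784. Over the 8 experiments from 20 min on, the difference was 0.48 ± 0.74 (SD, n = 8), above 0 in 5 of 8 (exact permutation p = 0.102, adjusted 0.102), since at 20 and 40 min it averaged -0.12 and -0.21.

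ALD5, a minor mitochondrial form, had its experiments on opposite sides of 0 at 20 and 40 min. At 40 min arrays 1 and 2 read -1.775 and -1.623 and arrays 3 and 4 read 0.348 and -0.056, so experiment A stood at -1.70 and B at 0.15. At 20 min arrays 1 and 2 were -0.383 and -0.649 and arrays 3 and 4 were 0.974 and 0.260. At 60 min all 4 were below 0, at -0.734, -1.183, -0.591 and -0.859, for a mean of -0.84 ± 0.43 (adjusted p = 0.142). ALD5 at 60 min passed with the experiment as a random block (adjusted p = 0.0278), with arrays 1 with 3 and 2 with 4 as the pairs (0.00281), with arrays as replicates (0.0192) and fitted on that time alone (0.0428), and did not pass with arrays scaled to 1 spread (-0.52, 0.479). At 120 min they were -0.191, -0.071, -0.178 and -0.590.

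ACS2 makes acetyl-CoA from acetate in the cytosol and nucleus. Up to 60 min no mean passed, with means between -0.22, at 60 min, and 0.03, at 10 min. At 20 min 3 arrays held a value. At 120 min it stood at -0.744, -0.900, -1.266 and -1.089, below every earlier value, with a mean of -1.0 ± 0.16 (adjusted p = 0.00332), or 2.0-fold lower. From 20 to 120 min it fell by 0.98 (SE 0.23, adjusted p = 0.0301), a call lost in the same 3 cases, with arrays scaled to 1 spread and without array 2 of 20 min. Without experiment B the value at 120 min was -0.82 (adjusted p = 0.0511), and on 120 min alone the test gave an adjusted p of 0.0639. ADH1 and ACS2 had the highest correlation among the members over the 9 experiment values (r = 0.932, across time points of arrays that they share), and ALD5 and ALD6 the lowest (r = -0.802). The ADH1 values in that correlation include the 7 arrays on which ADH1 shared the TDH3 value.

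**Figure D4:**
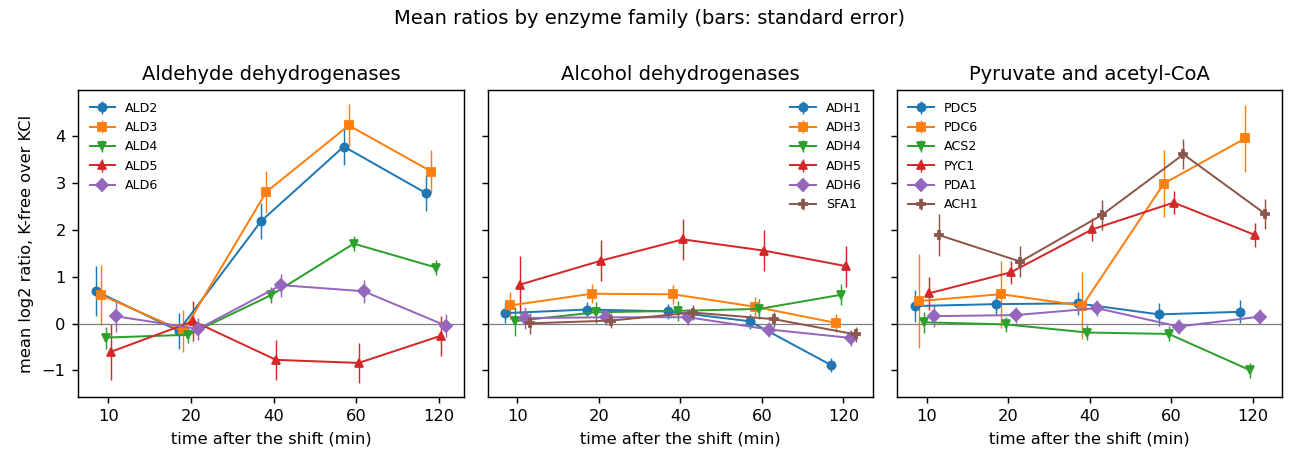
Mean log2 ratio of K-free over KCl with its standard error (vertical axis) against time after the shift in min for 3 groups of genes, offset sideways for legibility. ALD2 and ALD3 reach 3.79 and 4.24 at 60 min, above ALD4 at 1.71, ADH1 is the lowest alcohol dehydrogenase at 120 min, and PDC6 is the highest of the right-hand panel at 120 min.

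Other genes of the same reactions were read from the same fit. With 46.8% of all genes called at 60 min and 42.3% at 120 min, the shares called in each list were near or under that background and are given as counts only. Of 9 further isozymes, 7 were tested at 60 min and 3 rose, with 0 lower. These were ALD3 (4.24 ± 0.45, adjusted p = 0.000742) and ALD2 (3.79 ± 0.39, adjusted p = 0.000655), the stress-induced cytosolic aldehyde dehydrogenases, and ADH5 (1.56 ± 0.44, adjusted p = 0.0221). ADH3, the mitochondrial alcohol dehydrogenase, stood at 0.36 (adjusted p = 0.179). The median of the 7 was 0.36 beside -0.09 over all genes. At 120 min ALD2 (2.78) and ALD3 (3.25) were the 2 of 8 that rose. ALD2 and ALD3 lie side by side and are close in sequence, so their calls may not be separate.

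Among 10 genes of other uses of pyruvate, 3 of 8 tested at 60 min rose and 0 fell, with a median of 0.16. PYC1, a cytosolic pyruvate carboxylase, stood at 2.59 ± 0.25 (adjusted p = 0.000567), MPC3, a subunit of the mitochondrial pyruvate carrier, at 1.07 (adjusted p = 0.0373), and PDX1 of the pyruvate dehydrogenase complex at 0.56 (adjusted p = 0.0271). MPC1, another carrier subunit, was at 0.30 (adjusted p = 0.164). Of 10 glucose-repressed genes, 2 of 5 tested at 60 min rose: ACH1, an acetyl-CoA hydrolase that moves CoA to acetate (3.62 ± 0.32, adjusted p = 0.000485), and MDH2, the cytosolic malate dehydrogenase (1.01, adjusted p = 0.0250). The gluconeogenic PCK1 (1.45, adjusted p = 0.403) and the glyoxylate cycle gene MLS1 (-0.14, adjusted p = 0.901) did not pass. The median of the 5 was 1.01 at 60 min, and at 120 min, with 8 tested, it was 0.23.

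Of 17 regulators that act on the members or their pathways, 9 were tested at 60 min, and 3 rose and 1 fell, with a median of 0.31 beside -0.09 over all genes. At 120 min 4 of 10 rose and 1 fell. ADR1, the activator of ADH2 and other glucose-repressed genes, stood at 2.64 ± 0.51 (adjusted p = 0.00497). MET32 (2.53 ± 0.26, adjusted p = 0.00147) and MET4 (0.80 ± 0.19, adjusted p = 0.0135), factors of the sulfur amino acid genes, were higher. RAP1, a general activator of glycolytic and ribosomal protein genes, fell (-1.84, adjusted p = 0.00128). Of 15 thiamine genes, 1 of 8 tested at 60 min rose, THI6 (0.94 ± 0.16, adjusted p = 0.00274), while THI12 (1.01), THI11 (0.27) and THI13 (0.27) did not pass. THI11, THI12 and THI13 are near-identical in sequence, so their values may not be separate measurements, though at 120 min they stood apart, at -1.32, -0.04 and -0.47. The median of the 8 was 0.14. At 120 min 3 of 13 thiamine genes rose and 3 fell, with a median of 0.17 beside 0.00 over all genes. The enolase genes, whose isozymes also differ in expression, gave no second case to read, since ENO2 (0.20 at 60 min, adjusted p = 0.341, and -0.47 at 120 min, adjusted p = 0.0489) and ENO1 (not tested at 60 or 120 min) are among the genes that share the TDH3 value.

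By correlation over the 9 experiment values, among 3828 genes measured in all of them, the genes most like PDC6 were MNN4 (r = 0.942), a positive regulator of mannosylphosphate transfer in the cell wall, DSE4 (0.938), a daughter-cell glucanase, SUR1 (0.935) of sphingolipid mannosylation, SIP1 (0.934), a beta subunit of the Snf1 kinase, and EXG2 (0.931), an exoglucanase. MNN4 averaged 1.25 at 40 min, 2.64 at 60 min and 2.53 at 120 min. SIP1 had far smaller ratios, 0.16 at 60 min and 0.24 at 120 min. The likeness is over points that share arrays and a common time course. Most like PDC1 was TDH3, at r = 1.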

How the data were processed

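The deposited table holds 1 value per gene and array for 18 2-colour arrays. Per the labels, the authors dropped spots smaller than 120 µm or dimmer than 100 units, and 8 µg of RNA was labelled per sample. The values deposited by the authors are log ratios, taken as log2 from their range. Background correction, normalization and image software are not given in these sources. On 1 array of 10 min the labels name the same dye for both channels, and its title was followed.

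Experiment A was taken to be arrays 1 with 2, and B the rest, which the labels do not state. The consensus correlation within experiments was 0.252, against -0.236 for arrays 1 with 3 and 2 with 4. A gene was tested where 3 of 4 arrays (both at 10 min) had a value. limma 3.58.1 under R 4.3.3 fitted a mean per time point to the 9 experiment values, with 1 spread shared by all (prior degrees of freedom 3.49, residual 4). All tests are two-sided. The single experiment of 10 min borrows its spread from the later times. Isozyme pairs were compared by an exact sign-flip test over experiments. The procedure was tested on simulated data.

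Gene symbols are RefSeq's for assembly R64, where 5644 IDs matched and 18 more in capitals. Positions and sequences were not used here.

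The members, lists and tests were chosen with earlier results of these data known. Named beside the members were the 4 genes of each list with the largest absolute mean at 60 min, the 5 genes most correlated with PDC6 and PDC1 and, beyond that rule, genes that share the TDH3 value, THI and ALD genes at 120 min and those in the plot by family, seen before they were chosen. Alternatives were another pairing, each array as a replicate, random and replicate blocks, centring, scaling, quantile normalization, 2 filters, single time points, and leaving out each array or experiment.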

Additional observations from a re-analysis of the deposited data

Results flagged for a closer look

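Among 31 groups of 4 arrays of 1 member at 1 time point, 3 held an array set apart from the other 3 by most of the group's range, where chance gives about 1 in 20. PDC6 stood at 6.672 on array 4 of 120 min, against 2.717 to 3.308 on the others. PDC6 stood at -0.330 on array 3 of 40 min, against 0.546 to 0.660. PDC5 stood at 0.793 on array 1 of 60 min, against -0.060 to 0.065.

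3 members differed between 20 and 120 min by a test of the difference itself in limma. ALD4 rose by 1.44 (adjusted p = 0.0165), with both experiments of 120 min above both of 20 min. ADH1 changed by -1.19 (adjusted p = 0.0175) and ACS2 by -0.98 (adjusted p = 0.0301). For each of these genes both experiments of 120 min lay below both of 20 min.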

How the results depend on the processing

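Of 982 member values under an alternative, 888 kept their direction and side of the threshold, 38 newly passed, 17 no longer passed and 39 changed sign. None of the 39 was a called value. Of 9 called values, 7 lost the call under at least 1 of their alternatives. The cause of these shifts was not tested, except that single time points and single experiments leave fewer samples.

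Counts of calls moved with the pairing, the unit of replication and the scaling. The other pairing called 4 genes at 10 min, 88 at 20 min, 1244 at 40 min, 1548 from 20 to 120 min and 655 from 60 to 120 min. Each array as a replicate called 39, 113, 1340, 1527 and 694, and a random block 7, 68, 936, 1132 and 238. For members, the other pairing gave 3 called at 40 min, 4 at 60 min and 2 from 60 to 120 min; each array gave 2, 4 and 2, and the random block 2, 4 and 1. Scaling called 57 genes at 10 min, 296 at 20 min (154 higher and 142 lower, against 20 and 1), 743 at 40 min, 1199 at 60 min, 1088 at 120 min and 399 from 20 to 120 min. Quantile normalization called 115, 376 (186 higher and 190 lower), 829, 1145 and 1098 at the 5 times. Scaling called 1 member at 40 min, quantile normalization 2, and values on every array 1. Single time points called 65 genes at 20 min, 996 at 40 min and 646 at 120 min, with 1 member at 40 min and 2 at 120 min.

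PDC6 minus PDC1 passed under the other pairing and with each array (2.018 each), scaled (1.497), quantile-normalized (1.632) and with 10 min (1.822). PDC6 minus PDC5 passed with each array (1.668), scaled (1.183) and quantile-normalized (1.257), PDC5 minus PDC1 under the other pairing and with each array (0.350), and ALD4 minus ALD6 with each array (0.481). Arrays of a dye-swap pair share RNA, so each array is no independent sample.

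Leaving out 1 array or experiment, the genes called lay between 1 and 22 (20 min), 24 and 475 (40 min), 990 and 1946 (60 min), 539 and 1828 (120 min), 0 and 1000 (120 minus 20 min) and 0 and 1 (120 minus 60 min). Without experiment A or B of 40 min they were 24 and 41, and without array 3 of 40 min 271. The members called numbered 0 or 1 (40 min), 1 to 3 (60 min), 2 to 4 (120 min) and 0 to 4 (120 minus 20 min). PDC6 minus PDC1 ran from 1.551 to 2.329 and PDC6 minus PDC5 from 1.236 to 1.937, both passing without experiment B or array 3 of 40 min.

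Uncalled values near 0 changed sign. At 20 min ACS2 read 0.002 under the other pairing, 0.001 with each array, 0.031 centred and 0.059 quantile-normalized, and PDC1 0.032 scaled and 0.016 quantile-normalized. PDC5 from 60 to 120 min read -0.007 centred, -0.007 scaled and -0.046 quantile-normalized. With 1 array or experiment left out, PDC5 ran from -0.367 to 0.479 (60 to 120 min), -0.586 to 0.259 (20 to 120 min), -0.006 to 0.398 (60 min) and -0.171 to 0.674 (120 min). ALD5 ran from -0.516 to 0.617 (20 min), -1.699 to 0.146 (40 min) and -0.874 to 0.259 (20 to 120 min). ALD6 ran from -0.335 to 0.106 (20 min), -0.141 to 0.043 (120 min) and -0.154 to 0.286 (20 to 120 min). PDC6 ran from -0.167 to 1.131 (10 min) and -0.732 to 2.668 (60 to 120 min), ACS2 from -0.075 to 0.040 and PDC1 from -0.220 to 0.178 (20 min), and ADH1 from -0.256 to 0.355 (60 min).

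With the experiment as a replicate block, ALD6 at 60 min passed (0.691, adjusted p = 0.0394 in limma, 0.0503 without the block) and ALD6 at 10 min read -0.019; the block changed no other call. Deviations of same-numbered experiments correlated by 0.434 between 60 and 120 min and by 0.21 between 20 and 40 min, and by -0.181 to -0.0462 for the other 4 pairs of times. Not every pair was over 0.1, so the numbers were not taken to pair the samples, and whether 60 and 120 min share a culture is not settled. With values shared with TDH3 left out, a choice made after seeing the data, no called member value was lost.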

Other observations

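At 120 min the thiamine genes that rose were THI4 (1.90, adjusted p = 0.00411), THI7 (0.63) and THI6 (0.55), and those that fell were THI11 (-1.32, adjusted p = 0.00607), THI80 (-1.17) and THI2 (-0.98). THI4 makes the thiazole part of thiamine, THI7 is a thiamine transporter, THI11, 1 of several near-identical genes, makes its pyrimidine part, THI80 makes thiamine pyrophosphate and THI2 is an activator of the pathway. The relatives of THI11 did not move with it: THI5 stood at 1.56 (arrays from -0.352 to 5.602), THI12 at -0.04 and THI13 at -0.47, none of them called. Thiamine pyrophosphate is the cofactor of pyruvate decarboxylase. PDC5, the isozyme known to follow thiamine supply, did not pass at that time (0.25, adjusted p = 0.421).

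RAP1 was lower at 120 min as well (-1.89, adjusted p = 0.00177). MET28, a cofactor of Met4 named here after its values were seen, was higher at 20 min (2.37, adjusted p = 0.0100) and 40 min (3.64, adjusted p = 0.000815), and had values on 2 arrays at each of 60 and 120 min, too few to be tested. The other sulfur regulators tested at 20 and 40 min did not pass there: MET4 stood at -0.004 and 0.16, MET31 at -0.23 and 0.20, and CBF1 at 0.12 and 0.25. MET32 had too few values to be tested at these times, with 0.894 on 1 array of 20 min and 0.999 and 1.45 on 2 arrays of 40 min.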
